A study of Mus musculus with 6 samples.

Results

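Border macrophages that carry few or no transcripts of the Ccl8 programme were taken from single-cell RNA counts of mouse CD45+ immune cells. They numbered 940 of 17089 kept barcodes. A barcode was chosen from its raw UMIs, counts of distinct captured RNA molecules. It needed a border marker sum B (Mrc1, Pf4, Cbr2, Cd163, Lyve1) of at least 5. B had to exceed both a microglia sum M (Tmem119, Olfml3, Gpr34, Crybb1, Golm1, Slc2a5) and a monocyte sum D (Ms4a4c, Plac8, Lyz1, Ly6i, Ly6c2). A lymphocyte sum L (Cd3d, Cd3e, Cd3g, Trac, Nkg7, Cd79a) of at most 1 and a sum E (Ccl8, Gbp2b, Dnase1l3, Pla2g2d) of at most 2 were also required. These 26 genes chose the cells, so their levels are given as a description with no test.

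There were 6 libraries, 2 in each of 3 groups. Rbpj-deleted tumours are gliomas in which Trp53 and Rbpj are both knocked out per the labels, control tumours are gliomas with Trp53 knocked out and Rbpj wild type, and healthy brain is wild type for both genes. Early tumours were found by GFP from a Rosa-CAG::GFP Cre reporter and micro-dissected, and CD45+ cells of every group were sorted and run with 10x Genomics 3' v3 chemistry. The promoter that drives Cre, and the sex and age of the mice, are not given in the sources used here. The series design describes pools of 9 Rbpj-/- tumours, 15 control tumours and 9 healthy brains, while the extraction protocol describes the cells of each mouse in 1 well. Whether libraries of a group came from separate animals is thus not settled, and the p-values weigh differences only against the scatter of libraries, some of which may be technical. Both groups of tumours carry the Trp53 deletion, so tumour and deletion cannot be told apart against healthy brain. Trp53 stood at 78.9 and 100.3 CPM in the members of Rbpj-deleted tumours, 60.9 and 63.6 CPM in those of control tumours and 72.3 and 68.0 CPM in those of healthy brain (CPM, counts scaled to the members' total UMIs of that library). Rbpj stood at 122 and 55.5, 178 and 111, and 78.0 and 149 CPM in the same order. Both transcripts were found in the immune cells of all groups, and the labels do not say which cells carry the deletions.

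Border macrophages live in the meninges, in the perivascular spaces and in the choroid plexus, outside the parenchyma that microglia occupy. They are known for scavenger and lectin receptors such as Mrc1, the mannose receptor, and Cd163, the haptoglobin-haemoglobin receptor. Subsets that carry Lyve1, a hyaluronan receptor, and subsets rich in MHC class II, which presents peptides to CD4 T cells, have been described in mice.

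Total counts per library ran from 17430763 to 55229031, and the members held 278821 and 468509 UMIs in Rbpj-deleted tumours, 229982 and 62936 in control tumours, and 3999176 and 1719273 in the healthy libraries (replicates 1 and 2 in this order throughout). Median UMIs per member were 5292 and 5312, 7634 and 5891, and 5895 and 7317 in the same order of groups. Control tumour replicate 2 held only 10 members, and log CPM of the control libraries correlated at 0.612 across genes, against 0.878 for the Rbpj-deleted and 0.937 for the healthy libraries. H2-T23, a class I gene of the MHC, and H2-Eb1, a class II chain, parted the libraries in another way than the groups. H2-Eb1 stood at 4824 and 3979 CPM in Rbpj-deleted tumours, 52.2 and 207 CPM in control tumours and 8.0 and 1239 CPM in healthy brain, so healthy replicate 2 stood with the Rbpj-deleted libraries and healthy replicate 1 with the control ones. Results are therefore also given within these sets of libraries, by a batch term. That term sets Rbpj-deleted tumours against healthy replicate 2 alone, so the healthy arm is 1 library and the spread comes from the 2 pairs of tumour libraries, and H2-Eb1 was left out of summed class II levels. Of the members, 4 shared a barcode with another library, and 0 were members in both.

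Border macrophage genes outside the rule were higher in members than in microglia in every library. A list of 30 border macrophage genes outside the rule summed to 9289 and 8527 CPM in members of Rbpj-deleted tumours, 10590 and 6912 CPM in those of control tumours and 12490 and 15630 CPM in those of healthy brain. Microglia of the same libraries, taken by the mirrored rule given below, held 1247 and 2568, 2053 and 1597, and 2045 and 1715 CPM. All 5 border markers were detected in 404 members, 4 in 286, 3 in 149, 2 in 81 and 1 in 20. At least 3 of them were detected in 77.5% and 52.6% of members of Rbpj-deleted tumours, in 83.3% and 50% of those of control tumours and in 94.7% and 92.4% of those of healthy brain. The median of B was 21.5 and 14 in Rbpj-deleted tumours, 59.5 and 14 in control tumours, and 56 and 67 in the healthy libraries. Members from tumours thus rested on fewer border marker UMIs than healthy members in all but 1 library, control tumour replicate 1. Just inside the limits lay 15 members with a B of 5 and 102 with an E of 2, and just outside, with all other limits met, lay 18 barcodes with a B of 4 and 77 with an E of 3. E was 0 in 616 members and 1 in 222. A B under 20 was found in 64 of 116 members of Rbpj-deleted tumours, 13 of 34 of control tumours and 109 of 790 of healthy brain. In Rbpj-deleted tumours these members held few UMIs of several border genes, but not of all, as given along B below. The name border macrophage is thus less well supported by those several markers there than at a higher B.

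Mrc1 stood at 2285 and 1507 CPM in Rbpj-deleted tumours, 3170 and 2606 CPM in control tumours and 3195 and 4105 CPM in healthy brain. Pf4, a platelet factor that border macrophages also transcribe, stood at 1729 and 1872, 2787 and 4354, and 3956 and 4124 CPM in the same order. Lyve1 stood at 194 and 184, 670 and 31.8, and 920 and 971 CPM. These 3 markers were lower in both Rbpj-deleted libraries than in both healthy ones, while the control libraries lay apart from each other for Pf4 and Lyve1. Tmem119, a microglial gene of the rule, stood at 255 and 162, 13 and 79.5, and 582 and 153 CPM. Ccl8, a chemokine that draws monocytes, stood at 71.7 and 36.3, 30.4 and 15.9, and 25 and 10.5 CPM in members. In border macrophages with an E over 2, which meet every other limit, Ccl8 stood at 8255 and 5404, 12790 and 13510, and 1298 and 2893 CPM.

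Members were a smaller share of the barcodes in tumours than in healthy brain. The members made up 1.33% and 3.26% of kept barcodes in Rbpj-deleted tumours (40 and 76 cells), 1.96% and 1.32% in control tumours (24 and 10 cells) and 7.90% and 8.64% in healthy brain (567 and 223 cells). They averaged 2.29 ± 1.37% in Rbpj-deleted tumours, 1.64 ± 0.452% in control tumours and 8.27 ± 0.528% in healthy brain (SD, n = 2 libraries each). Both tumour groups lay below healthy brain with no overlap, with differences of -5.98 percentage points for Rbpj-deleted and -6.63 for control tumours, at an exact two-sided permutation p of 0.333 each, which is the smallest that 2 against 2 libraries can give. Rbpj-deleted and control tumours overlapped (difference 0.652 points, exact permutation p = 0.667). Shares depend on dissection and sorting, and fewer of these cells cannot be told apart from more of other cells.

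Without the limit on E, border macrophages of any kind made up 10.7 ± 1.95% of kept barcodes in Rbpj-deleted tumours, 5.24 ± 0.110% in control tumours and 11.5 ± 0.382% in healthy brain. The Rbpj-deleted and healthy libraries then overlapped (exact permutation p = 1.0). Of the border macrophages, an E of at most 2 was found in 10.9% of 366 cells (exact 95% interval 7.92 to 14.6) and 34.9% of 218 cells (28.6 to 41.6) in Rbpj-deleted tumours. It was found in 36.9% of 65 cells (25.3 to 49.8) and 25.6% of 39 cells (13 to 42.1) in control tumours, and in 70.3% of 807 cells (67.0 to 73.4) and 73.4% of 304 cells (68.0 to 78.2) in healthy brain. The intervals cover counting error only. Since E is part of the rule, these shares are a description. Cells with an E over 2 were also deeper, with a median of 10090 and 9383 UMIs in Rbpj-deleted tumours, 15700 and 15080 in control tumours, and 8864 and 10090 in the healthy libraries.

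**Figure D1:**
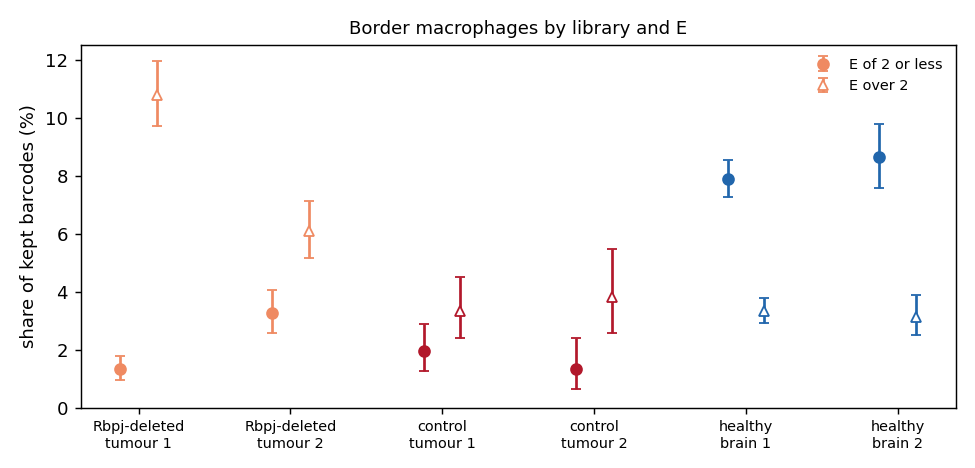
Share of kept barcodes (%) that were border macrophages, by library, with the E sum at 2 or less (filled circles) or over 2 (open triangles); bars are exact 95% binomial intervals of counting error. The healthy libraries stand at 7.90% and 8.64% for the cells with low E, above all 4 tumour libraries, which lie between 1.32% and 3.26%.

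Members differed among themselves along the border marker sum. The level of MHC class II transcripts (H2-Aa and H2-Ab1, chains of the I-A molecule, and Cd74, its invariant chain) was higher where B was under 20 than above it in each group. In Rbpj-deleted tumours these 3 genes summed to 27530 CPM over 36 members with a B of 5 to 9 and to 15950 CPM over 28 members with a B of 10 to 19. They summed to 8603 CPM over 30 members with a B of 20 to 49 and to 6586 CPM over 22 members with a B of 50 or more. In control tumours the same 4 ranges held 16940, 34050, 2903 and 2873 CPM, over only 5, 8, 6 and 15 members. In healthy brain they held 30600, 20940, 2015 and 1457 CPM over 42, 67, 212 and 469 members.

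Lyve1 ran the other way, with 12.1, 44.0, 109 and 494 CPM in the 4 ranges in Rbpj-deleted tumours and 99.3, 83.6, 306 and 1164 CPM in healthy brain. It is itself summed into B, so a rise along B is in part set by the ranges and is only a description. Cd209f, a lectin receptor outside the rule, stood at 0, 0, 29.7 and 99.7 CPM in Rbpj-deleted tumours and 22.9, 30.4, 60.1 and 262 CPM in healthy brain. F13a1, the coagulation factor XIII subunit known from border macrophages, stood at 6.04, 25.2, 173 and 290 CPM in Rbpj-deleted tumours and 107, 72.2, 253 and 361 CPM in healthy brain. Ccr2, the receptor that marks monocytes and their recent descendants, stood at 90.6, 37.7, 0 and 0 CPM in Rbpj-deleted tumours and 153, 87.4, 3.88 and 5.13 CPM in healthy brain. Members of Rbpj-deleted tumours with a B under 20 thus held little or none of Cd209f and F13a1, and those with a B of 20 or more held no UMI of Ccr2. Other genes of the border macrophage list did not all follow. Ms4a7 stood at 833.5, 1251, 999 and 1179 CPM and Apoe at 1625, 1352, 1712 and 1260 CPM in the 4 ranges in Rbpj-deleted tumours. In healthy brain they stood at 275, 874, 1448 and 1235 CPM and at 947, 1315, 2196 and 1863 CPM. Stab1 stood at 229.5, 465, 905 and 1061 CPM in Rbpj-deleted tumours. The dendritic cell genes Flt3 and Zbtb46 stood at 24.2 and 6.04 CPM in the lowest range of B in Rbpj-deleted tumours and at 0 and 7.64 CPM in that of healthy brain. Median UMIs were also lower at low B (1426 against 8011 UMIs in the lowest and highest range in healthy brain). The part of depth or of monocyte-derived cells in this gradient was not tested.

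**Figure D2:**
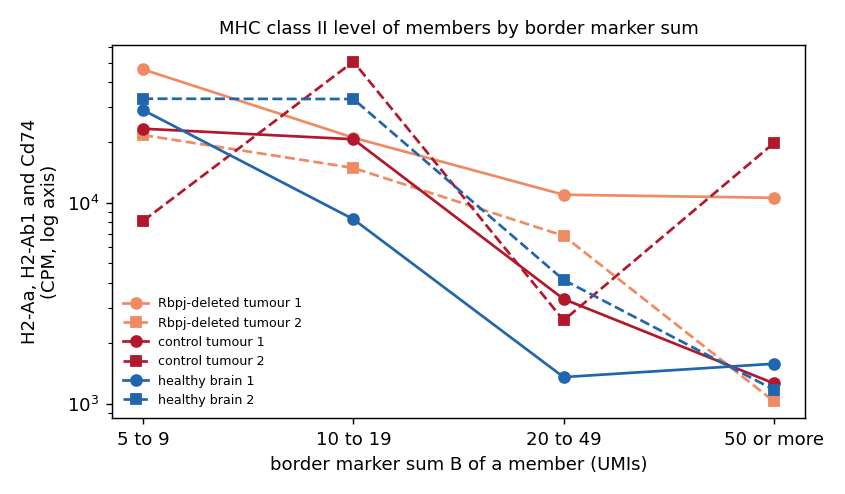
Summed level of H2-Aa, H2-Ab1 and Cd74 (CPM, log axis) against the border marker sum B of the members (UMIs, 4 ranges), 1 line per library. The healthy libraries stand at 28990 and 33040 CPM at a B of 5 to 9 and at 1579 and 1173 CPM at 50 or more; control tumour replicate 2 holds 2 to 4 members in each range and does not follow the others.

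Members rich in class II made up more of the members in both Rbpj-deleted libraries than in both healthy ones, in a design where 2 against 2 libraries cannot reach an exact permutation p below 0.333. Members near the limit on B are more frequent in Rbpj-deleted tumours, and at a B under 20 the level pooled over their libraries was not above that of healthy brain. Rbpj-deleted replicate 1 alone held 46250 CPM at a B of 5 to 9, against 28990 and 33040 CPM in the healthy libraries. At a B of 20 to 49 both Rbpj-deleted libraries stood above both healthy ones (10980 and 6854 against 1355 and 4133 CPM). At a B of 50 or more only replicate 1 did (10600 and 1027 against 1579 and 1173 CPM). With each barcode thinned at random to 2000 UMIs, 10 or more UMIs of the 3 genes were found in 15 of 33 members (45.5%, exact 95% interval 28.1 to 63.7) and 30 of 67 members (44.8%, 32.6 to 57.4) of Rbpj-deleted tumours. They were found in 2 of 18 (11.1%, 1.38 to 34.7) and 3 of 6 (50%, 11.8 to 88.2) of control tumours, and in 25 of 497 (5.03%, 3.28 to 7.34) and 24 of 209 (11.5%, 7.5 to 16.6) of healthy brain. The unthinned shares were 57.5% and 53.9%, 29.2% and 60%, and 5.29% and 12.1%. On both measures the Rbpj-deleted libraries lay above both healthy ones. After thinning, control replicate 1 (2 of 18 members) lay between the healthy libraries and control replicate 2 (3 of 6) above both Rbpj-deleted ones. Unthinned, both control libraries lay above both healthy ones. Thinning left out 7 and 9, 6 and 4, and 70 and 14 members. Microglia of the same libraries (M of at least 5, above B and D, with the same limits on L and E) had such shares of 69.1% and 44.4%, 43.3% and 70.5%, and 0.627% and 0.353%. In the thinned healthy members Lyve1 was detected in 16.3% of those rich in class II and in 55.4% of the others, and in Rbpj-deleted tumours in 11.1% and 21.8%. Lyve1 counts in B, so these shares are a description with no test.

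Rbpj-deleted tumours and healthy brain differ in the tumour, in both deletions and in the micro-dissection at once, and their comparison covers all of these together. Of 5666 genes tested on UMI sums per library, 35 were called at an edgeR adjusted p under 0.05 (0.618% of those tested), 28 higher (0.494%) and 7 lower (0.124%) in the tumours. The calls included 4 of 10 tested genes of the glucocorticoid response, all lower, and 7 of 18 of MHC class I presentation, all higher. Libraries of the 2 groups did not overlap for 49.6% of all genes tested, so a lack of overlap alone says little. Without 60 mixed barcodes, members that held 10 or more UMIs of a list of another cell type, 49 of 5244 genes were called (0.934%), of which 25 were called in both fits. Without Rbpj-deleted replicate 2 the call held for only 2 genes, AW112010 and Spp1 (adjusted p = 0.0305 each), and without control replicate 2 108 genes were called.

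The glucocorticoid response list had 4 called members of 10 tested, all lower, and all 10 had a negative fold change, with a median log2 of -1.60 against -0.01 over all genes. Tsc22d3 (ENSMUSG00000031431, mm10 chromosome X:140539528-140600659) encodes GILZ, an anti-inflammatory leucine zipper protein. It stood at 100 and 156 CPM in Rbpj-deleted tumours, 326 and 366 CPM in control tumours and 1109 and 883 CPM in healthy brain. The 3 groups did not overlap, with the control libraries between the others. Set against healthy brain, the fold change in Rbpj-deleted tumours was log2 -2.84 ± 0.33, with an edgeR adjusted p of 0.00268. After log2 values, here and below, ± gives an SE derived from the edgeR F statistic, with the spread estimated over all 6 libraries.

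Fkbp5 (ENSMUSG00000024222, 17:28399094-28517527), a co-chaperone that restrains the glucocorticoid receptor, stood at 21.5 and 23.5 CPM in Rbpj-deleted tumours, 117 and 63.6 CPM in control tumours and 318 and 252 CPM in healthy brain. Its fold change in Rbpj-deleted tumours was log2 -3.55 ± 0.38 (edgeR adjusted p = 0.00243). Ddit4 (ENSMUSG00000020108, 10:59949669-59951834), an inhibitor of mTORC1 signalling, stood at 3.59 and 4.27 CPM in Rbpj-deleted tumours, 34.8 and 0 CPM in control tumours and 143 and 105 CPM in healthy brain. With 3 UMIs in Rbpj-deleted against 753 in healthy members it was 32.8-fold lower (counting interval 11.2 to 159), and edgeR gave an adjusted p of 0.00546. Klf9 (ENSMUSG00000033863, 19:23141226-23168134), a transcription factor that hormones induce, stood at 10.8 and 8.54 CPM, 39.1 and 0 CPM, and 94.3 and 71.5 CPM in the same order (log2 -3.03 ± 0.57, adjusted p = 0.0421). Tsc22d3, Fkbp5 and Ddit4 kept their calls among members with a B of at least 20 (adjusted p = 0.0260, 0.0260 and 0.0178) and within the sets of libraries (0.0158, 0.0105 and 0.0278), while Klf9 did not (0.0614 and 0.337).

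After thinning to 2000 UMIs, Tsc22d3 was detected in 15.2% and 35.8% of members of Rbpj-deleted tumours, 33.3% and 16.7% of control tumours and 83.3% and 76.1% of healthy brain. Fkbp5 was detected in 6.06% and 2.99%, 44.4% and 0%, and 41.6% and 41.1%. Both Rbpj-deleted libraries lay below both healthy ones for the 2 genes, while the share of members with Fkbp5 in control tumour replicate 1 was above the healthy shares.

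**Figure D3:**
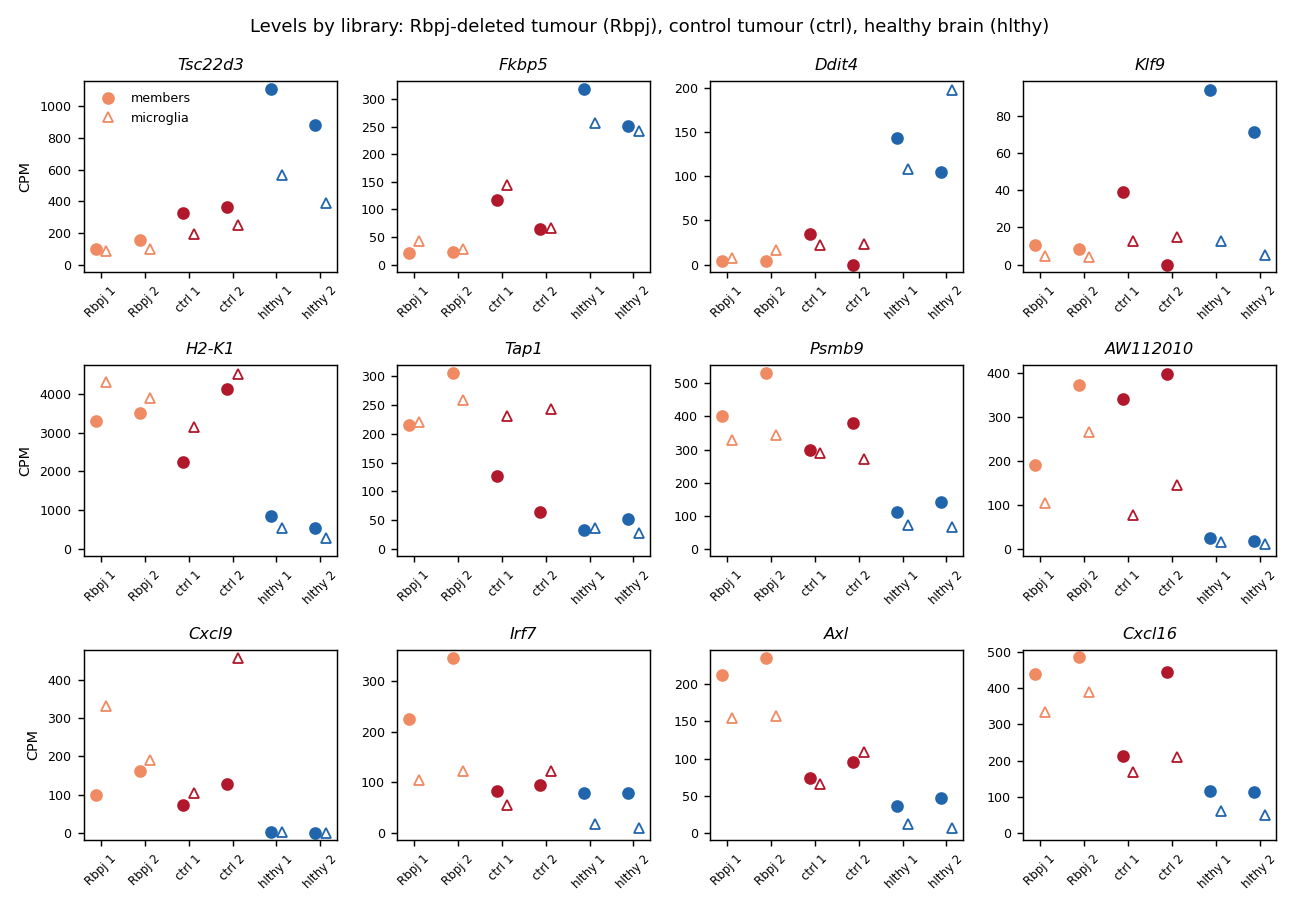
Levels (CPM) of 12 genes in members (filled circles) and microglia (open triangles) of each library, with Rbpj-deleted tumours on the left, control tumours in the middle and healthy brain on the right. By CPM Tsc22d3, Fkbp5 and Ddit4 are lowest in Rbpj-deleted tumours in both cell types, except that the members of control tumour replicate 2 held no UMI of Ddit4.

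Of the 18 tested genes of MHC class I presentation, 7 rose and 0 fell, all 18 had a positive fold change, and the median was log2 1.89. H2-K1 (ENSMUSG00000061232, 17:33996017-34000347), a classical class I heavy chain, stood at 3300 and 3518 CPM in Rbpj-deleted tumours, 2235 and 4115 CPM in control tumours and 855 and 537 CPM in healthy brain (log2 2.39 ± 0.37, edgeR adjusted p = 0.0155). H2-D1, the other classical heavy chain of this reference, stood at 5778 and 5150, 6509 and 7770, and 2048 and 1372 CPM (log2 1.78 ± 0.30, adjusted p = 0.0257). H2-Q7, a non-classical gene, stood at 161 and 169, 200 and 588, and 19.8 and 20.4 CPM (log2 3.14 ± 0.43, adjusted p = 0.010). All tumour libraries were above both healthy libraries for these 3 genes.

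Of the genes of peptide transport and cleavage in the list, Tap1 and Psmb9 rose, and Tap2, Tapbp, Psmb8, Psmb10, Psme1, Psme2 and Erap1 were not called (lowest edgeR adjusted p = 0.0734). Tap1 (ENSMUSG00000037321, 17:34187553-34197225), a subunit of the transporter that loads peptides into the endoplasmic reticulum, stood at 215 and 305 CPM in Rbpj-deleted tumours, 126 and 63.6 CPM in control tumours and 33.3 and 52.4 CPM in healthy brain (log2 2.73 ± 0.35, adjusted p = 0.00525). Psmb9 (ENSMUSG00000096727, 17:34181987-34187764), a catalytic subunit of the immunoproteasome, stood at 402 and 532, 300 and 381, and 111 and 141 CPM (log2 1.99 ± 0.30, adjusted p = 0.0155). H2-Q4 and H2-Q6 were the other 2 called. Within the sets of libraries H2-K1 kept its call (adjusted p = 0.0227), and Tap1 (0.109), Psmb9 (0.303) and H2-Q7 (0.0991) did not. Without the mixed barcodes 4 of the class I genes were called (H2-K1, H2-Q6, Tap1 and Psmb9). H2-D1, H2-Q4 and H2-Q7 were not (edgeR adjusted p = 0.307 for H2-Q7). The H2 heavy chains share 22.8% (H2-K1) to 50.3% (H2-Q6) of their 31-base words with other genes, so the division of reads among them is uncertain.

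Promoter sequence was read because these class I genes moved together. RefSeq (GRCm38.p6) gave a promoter of 250 bases before to 50 after the start for 13 of the 18 rises named in this comparison. The letters GAANNGAAA on either strand, an interferon-stimulated response element, were found in 3 of the 13 (H2-K1, H2-Q6 and H2-Q7) and in 6.31% of 32817 RefSeq promoters. TTCNNNGAA, a gamma-activated site, was found in 0 of the 13, in 2 of 7 falls (Klf9 and Tsc22d3) and in 7.01% of all promoters. A gene was counted if any of its start sites matched, while the shares of all promoters count each promoter by itself. For Tsc22d3 the match lay at start site 3 alone. A full palindromic glucocorticoid response element was found in 0 of the 7 falls and 0 of the 13 rises, and in 0.00914% of all promoters. A kappa-B element was found in 0 of both and in 0.14% of all promoters. Capitals mark the element, here read as its reverse complement, in 60 bases of each promoter from the gene's own strand.
H2-K1, chr17:34000403-34000462, minus strand: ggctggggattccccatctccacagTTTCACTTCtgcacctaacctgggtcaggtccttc
H2-Q6, chr17:35424673-35424732, plus strand: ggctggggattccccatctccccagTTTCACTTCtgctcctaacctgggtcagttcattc
H2-Q7, chr17:35439017-35439076, plus strand: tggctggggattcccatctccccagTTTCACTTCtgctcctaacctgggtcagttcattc
The windows of H2-Q6 and H2-K1 shared 56 of 60 bases position by position, those of H2-Q6 and H2-Q7 53 and those of H2-Q7 and H2-K1 49. These genes are relatives, so the shared element is not an independent count, and a match describes letters and not a bound site.

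Other interferon-regulated genes rose in smaller numbers. Of 14 tested genes of the interferon-gamma response, 2 rose (median log2 1.91), and of 30 of the type I interferon response, 2 rose (median log2 0.84). Cxcl9, a chemokine for CXCR3 on T cells, stood at 100 and 162 CPM in Rbpj-deleted tumours, 73.9 and 127 CPM in control tumours and 3.25 and 0 CPM in healthy brain (log2 5.99 ± 0.62, edgeR adjusted p = 0.00243). In border macrophages with an E over 2 Cxcl9 averaged 1908 ± 709 CPM in Rbpj-deleted tumours and 3260 ± 1641 CPM in control tumours. The rule parted these cells from the members by E, which holds the interferon-induced Gbp2b. The lower level in members is thus a description with no test. AW112010 (ENSMUSG00000075010, 19:11047612-11055808), an interferon-inducible transcript, stood at 190 and 371, 339 and 397, and 25.3 and 17.5 CPM (log2 3.8 ± 0.39, adjusted p = 0.00243). It kept its call in all 21 alternative fits. Genes of T and NK cells, which also express it, summed to 1008 and 1065 CPM in members of Rbpj-deleted tumours, 1418 and 111 CPM in those of control tumours and 97.0 and 62.2 CPM in those of healthy brain. Without the mixed barcodes these sums were 216.3 and 216.5, 208.9 and 144.5, and 99.2 and 61.7 CPM. In that fit AW112010 had an edgeR adjusted p of 0.000595, and 2 genes of the T and NK list were called higher, against 0 with all members. The part of T and NK RNA in the level of AW112010 was not tested. Irf7, a transcription factor of the type I response, stood at 226 and 346, 82.6 and 95.3, and 78.3 and 79.7 CPM (log2 1.97 ± 0.30, adjusted p = 0.0155). Zbp1, a sensor of Z-form nucleic acids, rose too (log2 2.65 ± 0.44, adjusted p = 0.0311), and did not keep its call without the mixed barcodes (0.0787). Within the sets of libraries AW112010 (edgeR adjusted p = 0.0110) and Cxcl9 (0.00116) kept their calls and Irf7 (0.267) did not.

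Receptors, complement and lipid genes gave single calls. Axl (ENSMUSG00000002602, 7:25757273-25788705), a receptor tyrosine kinase for the uptake of dying cells, stood at 212 and 235 CPM in Rbpj-deleted tumours, 73.9 and 95.3 CPM in control tumours and 36.3 and 47.7 CPM in healthy brain (log2 2.53 ± 0.28, edgeR adjusted p = 0.00243). It was the 1 rise among 20 scavenger and phagocytic receptors, whose median was log2 -0.07. Cxcl16, a membrane-bound chemokine, stood at 438 and 484, 213 and 445, and 115 and 113 CPM (log2 2.11 ± 0.34, adjusted p = 0.0179), while the median of 10 chemokines was -0.11. C3, the central complement component, stood at 71.7 and 76.8, 261 and 47.7, and 6.0 and 3.49 CPM (log2 3.95 ± 0.57, adjusted p = 0.0155), 1 of 10 complement genes. Abcg1, a cholesterol exporter, was the 1 call of 11 lipid genes (log2 1.64 ± 0.29, adjusted p = 0.0329). Axl and Cxcl16 were not called among members with a B of at least 20 (adjusted p = 0.0614 and 0.231), and Axl, Cxcl16 and C3 were not called within the sets of libraries (0.0778, 0.267 and 0.0778). Slamf8 and Il18bp rose as well (log2 2.86 and 2.25). Spp1, osteopontin, was called at log2 4.77 ± 0.61, but not without the mixed barcodes (adjusted p = 0.378), and 384 of its 597 UMIs in Rbpj-deleted replicate 2 lay in 1 member.

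Of the remaining falls, Nfatc2, a calcium-regulated transcription factor, stood at 14.4 and 12.8 CPM in Rbpj-deleted tumours, 65.2 and 111 CPM in control tumours and 71.0 and 72.1 CPM in healthy brain (log2 -2.31 ± 0.44, edgeR adjusted p = 0.0421). S100a8 and S100a9, abundant neutrophil proteins, had log2 fold changes of -6.81 and -7.84 (edgeR adjusted p = 0.00243 and 0.00268), with 3 and 2 UMIs in Rbpj-deleted against 2319 and 3251 UMIs in healthy members. Their list of 9 neutrophil genes summed to 35.9 and 17.1 CPM in Rbpj-deleted tumours, 4.35 and 0 CPM in control tumours and 741 and 2035 CPM in healthy brain, and neither gene was tested once the mixed barcodes were left out. Of the border macrophage genes outside the rule, 0 of 27 were called, 25 had a negative fold change, and the median was log2 -0.58. Stab1, a scavenger receptor of this list, stood at 850 and 623, 917 and 731, and 1156 and 1201 CPM. Class II genes had 0 calls of 8 (median log2 2.09), Notch signalling genes 0 of 6 (median log2 -0.21), and cell cycle genes 1 of 16, Stmn1 (median log2 2.05).

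In the fit reported here control tumours, on 34 members, differed from healthy brain in fewer genes than Rbpj-deleted tumours. Of 5666 genes, 20 were called by edgeR (0.353%), 18 higher (0.318%) and 2 lower (0.0353%). Without Rbpj-deleted replicate 2, which enters the estimate of the spread, 1 gene was called, and without control replicate 2, 141. The order of the tumour groups turned in some settings, with 335 genes against 235 in Rbpj-deleted tumours with no filter. It also turned at a B of at least 10 and at an E of 0. Control replicate 2 was left out of both of these fits, so 1 control library remained there. For 14 of the 18 rises, at least 50% of the UMIs of 1 control library lay in 1 member. One barcode of control tumour replicate 1 held 3541 UMIs of glial, tumour and neuronal genes. Without the mixed barcodes 6 genes were called (0.114% of 5244), of which AW112010, C3, Cxcl9, Gadd45b and Id2 were called in both fits. Of these 5, single members held 87.5% of the Cxcl9 UMIs of 1 control library, 85% of those of C3, 76.5% of those of Gadd45b, 57.7% of those of AW112010 and 44.6% of those of Id2. AW112010 rose by log2 4.11 ± 0.41 (edgeR adjusted p = 0.00382, and 0.00748 without the mixed barcodes). Gadd45b, a stress-induced growth arrest gene, stood at 422 and 270 CPM in control tumours, 97 and 17 UMIs, against 65.8 and 60.5 CPM in healthy brain (log2 2.56, adjusted p = 0.0115, and 0.00753 without the mixed barcodes). Id2, an inhibitor of helix-loop-helix factors, stood at 583 and 1176 CPM against 176 and 153 CPM (log2 2.42, and adjusted p = 0.00896 without the mixed barcodes). Of the class I list 4 of 18 rose (H2-K1, H2-D1, H2-Q4, H2-Q7; median log2 1.37), and 0 of these 4 kept the call without the mixed barcodes. The glucocorticoid list had 0 calls of 10, with a median of log2 -1.05. Without the mixed barcodes 1 gene of this list was called lower, the 1 fall among the 6 calls of that fit. This comparison and the preceding one share the healthy libraries.

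Between Rbpj-deleted and control tumours edgeR called 0 of 5666 genes (0.0%), with 453 at an unadjusted p under 0.05, and DESeq2 called 10. The sets of libraries parted by H2-Eb1 and H2-T23 coincide with these 2 groups, so set and genotype cannot be told apart here. Tsc22d3 had a log2 fold change of -1.35 ± 0.34 (edgeR adjusted p = 0.404). Trem2, a lipid receptor of macrophages, stood at 1922 and 1880 CPM in Rbpj-deleted tumours and 987 and 556 CPM in control tumours (log2 1.32 ± 0.36, edgeR adjusted p = 0.429). Pkm, a glycolytic enzyme, stood at 495 and 751 CPM against 178 and 222 CPM (log2 1.73 ± 0.34, edgeR adjusted p = 0.341, and 0.0225 by DESeq2). For H2-K1 the difference was log2 0.17 ± 0.35, and for Cd74 0.05 ± 0.90. Without control replicate 2, 79 genes were called. An absence of calls does not show equal levels.

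The same comparison in microglia of the same libraries showed which changes the members shared with their parenchymal neighbours. In microglia of Rbpj-deleted tumours 983 of 11581 genes were called against healthy brain (8.49%), 700 higher (6.04%) and 283 lower (2.44%). These calls rest on 1003 and 533 microglia of Rbpj-deleted tumours and 5403 and 1868 of healthy brain. The members numbered only 40 and 76, and 567 and 223, so the numbers of calls do not compare the breadth of the responses. The glucocorticoid list had 4 falls of 13 in microglia (median log2 -1.17). Tsc22d3 was lower by log2 -2.22 and Fkbp5 by -2.61 in microglia, and their differences between the cell types were -0.72 and -0.90 (edgeR adjusted p = 0.644 each). For class I, 15 of 19 genes rose in microglia (median log2 2.46), and for the type I interferon response 31 of 35 (median log2 2.57).

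A fit with both cell types tested whether the responses differed. Of 10850 genes, 81 were called for Rbpj-deleted tumours (0.747%), 80 of them with a smaller (0.737%) and 1 with a larger (0.00922%) log2 response in members than in microglia, and 112 without the mixed barcodes (1.04% of 10785). All genes tested had a median difference of log2 -0.158 here, and of -0.043 with RLE or library-size scaling, under which 62 and 56 genes had a smaller and 3 each a larger response. Of the type I interferon list 10 of 35 responded less in members, of the class I list 4 of 18 (H2-K1, H2-D1, H2-Q6, H2-Q7), of the interferon-gamma list 1 of 23 and of the glucocorticoid list 0 of 14. For H2-Q7 the difference was log2 -2.49 ± 0.39 (edgeR adjusted p = 0.00298), and for Tap1 it was -0.39 (adjusted p = 0.994).

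For several of these genes the healthy members already held more RNA than healthy microglia. Ifi204, an interferon-induced DNA sensor, stood at 233 and 243 CPM in members of Rbpj-deleted tumours and 155 and 184 CPM in those of healthy brain. In microglia it stood at 135 and 128 CPM in Rbpj-deleted tumours and 11.1 and 6.0 CPM in healthy brain. The difference of the responses was log2 -3.56 ± 0.34 (edgeR adjusted p = 3.75e-06), and 34.0% of its 31-base words occur in other genes. Vcam1, an adhesion molecule for leukocytes, stood at 75.3 and 66.2 CPM in members of Rbpj-deleted tumours and 238 and 182 CPM in those of healthy brain, while in microglia it stood at 75.2 and 49 CPM in Rbpj-deleted tumours and 13.2 and 6.35 CPM in healthy brain. Zbp1 had a difference of log2 -2.11 (adjusted p = 0.00108).

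Members and microglia were both held to an E of at most 2, and Gbp2b in E is itself interferon-induced, so the rule touches this comparison. With no limit on E, Ifi204 (log2 -3.43, edgeR adjusted p = 0.0152) and Plk2, a stress-induced kinase (-2.69, adjusted p = 0.00177), kept the difference, and Vcam1 (-2.98, adjusted p = 0.0621) did not. For control tumours 75 of 10850 genes differed (0.691%), 11 with a larger (0.101%) and 64 with a smaller response in members (0.59%). There were 57 without the mixed barcodes (0.529%), 13 without the limit on E and 32 without control replicate 1, and all genes tested had a median difference of log2 -0.35, against -0.143 with RLE and -0.101 with library-size scaling. The lean to smaller responses in control tumours depended on the setting, with 21 larger and 36 smaller with library-size scaling. It was also less marked at a B of at least 10, at an E of 0 and without control replicate 2, where 1 control library remained.

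**Figure D4:**
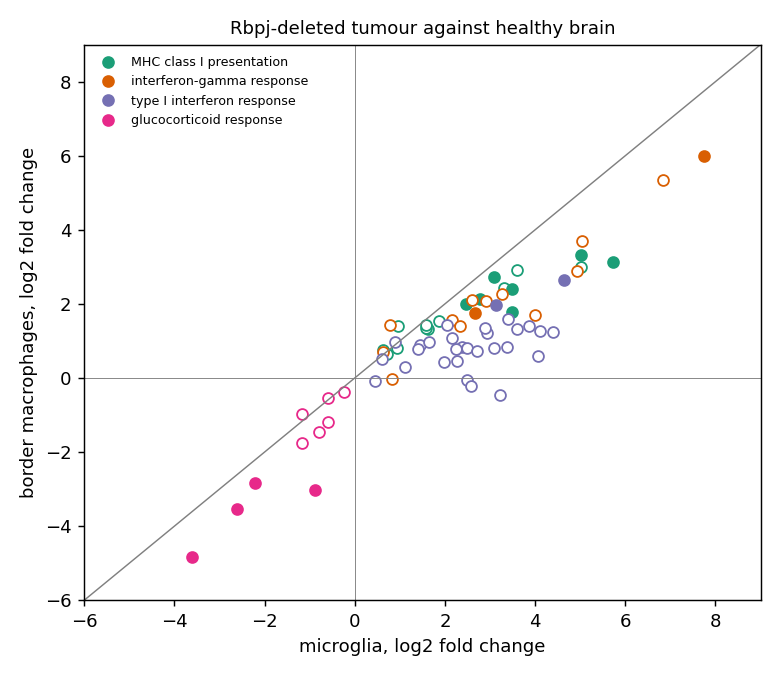
Log2 fold change of Rbpj-deleted tumours over healthy brain in members (vertical axis) against microglia (horizontal axis) for the genes of 4 lists, filled where called in members and open where not; the diagonal marks equal change. Class I and interferon genes lie mostly below the diagonal, with class I medians of 1.89 in members and 2.46 in microglia, and the 4 called glucocorticoid genes lie at -2.84 to -4.82 in members.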

How the data were processed

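The submitters deposited 1 table of UMI counts for 27378 gene IDs (27359 with a symbol in GENCODE vM21, mm10) and 17362 barcodes, each named by its sample. The counts were taken as deposited. Per the submitters' processing notes kallisto 0.46.0 and bustools 0.39.3 were used; their settings are not given in the sources used here. The lowest total per barcode in the deposited table was 1000 counts.

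Barcodes under 500 genes or over 10% mitochondrial counts were dropped (17), and copies of a barcode with over 10 times its counts in another library were removed as index-hopped (256). Doublets were not called; 60 members with 10 or more UMIs of another cell type were left out in an alternative. The members, gene lists and tests were chosen with earlier results of these data known. Counts were summed per library and tested with edgeR 4.0.16 after filterByExpr and TMM scaling (robust quasi-likelihood, R 4.3.3, 3 residual degrees of freedom, all 6 libraries in 1 fit, Benjamini-Hochberg over all genes except the 26 of the rule, called under 0.05). The difference from microglia was a term of a fit over members and microglia with library as a block. Log2 values are ± SE, and levels are CPM. The genes named are up to 12 largest rises and falls at 50 CPM or more in the higher group whose libraries do not overlap (6 for the difference from microglia; no predicted, ribosomal, mitochondrial or sex-linked genes), and those of smallest p or highest level of each list; genes named beyond it were chosen after their values were seen, and 1 gene the rule names is not reported here. Scripts were tested on simulated counts. Alternatives were RLE and library-size scaling, DESeq2 1.42.0, no filter, a replicate block, the library sets as a batch, each library left out, other limits of the rule, thinning to 2000 UMIs, and, chosen after seeing the data, a B of at least 20, fewer healthy members and no mixed barcodes.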

Additional observations from a re-analysis of the deposited data

Results flagged for a closer look

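The genes below were picked out because a test of the difference itself (edgeR, members and microglia in 1 fit) gave a response to the tumour that differed between members and microglia. Values are log2 differences, members minus microglia, and the largest 6 in each direction that meet the limits on level and overlap are named.

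For Rbpj-deleted tumours against healthy brain 81 genes differed. The differences were -12.65 for Mcpt2, a mast cell protease (adjusted p = 0.000632), -4.34 for Vcam1 (2.78e-08), -3.79 for Ifi207 (0.0315), -3.56 for Ifi204 (3.75e-06), -3.20 for Plk2 (0.000169) and -3.03 for Ccl12, a monocyte chemokine (0.0134). The 1 larger response in members was 2.38 for Actn1, an actin crosslinker (0.00413). Mcpt2 had 0 UMIs in members of Rbpj-deleted tumours, and in healthy replicate 1 all its UMIs, 40, lay in 1 member. Ccl12 stood at 954 and 2305 CPM in members of Rbpj-deleted tumours and 1437 and 1137 CPM in those of healthy brain, against 954 and 1259 CPM and 121 and 128 CPM in microglia. With no limit on E, Mcpt2, Ifi204 and Plk2 kept the call and the other 4 did not.

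For control tumours against healthy brain 75 genes differed. The responses were larger in members for Arg1 (10.70, adjusted p = 7.72e-05), Syt11 (4.27, 0.0289), Abca2 (3.16, 0.0237), Slc44a1 (2.82, 0.0469), Ypel2 (2.38, 0.0352) and Kif1b (1.66, 0.0166). They were smaller for Apoc1 (-5.78, 0.00115), Gbp8 (-4.98, 0.000108), Iigp1 (-4.86, 0.0223), Dcn (-4.84, 0.00931), Ifi204 (-4.05, 2.1e-06) and Gbp2 (-3.31, 0.0195). In control tumour replicate 1, 1 member held 96 of 97 UMIs of Arg1, 91 of 93 of Syt11 and 54 of 67 of Kif1b. Without the mixed barcodes 3 of these 12 kept the call (Apoc1, Gbp8 and Ifi204), and with no limit on E only Arg1 did.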

How the results depend on the processing

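All 25 genes named as called in Rbpj-deleted tumours against healthy brain kept their direction in every alternative that tested them; AW112010 was called in all 21, with a log2 of 2.91 to 5.45 and an adjusted p of at most 0.0305. Tsc22d3, Fkbp5 and Ddit4 were called in 20 of 21 (highest adjusted p 0.0691, 0.0799 and 0.152). The counts moved more. The 35 genes became 414 with no limit on E, 235 with no filter, 96 after thinning, 93 at a B of at least 10, 72 with a replicate block, 63 by DESeq2, 16 at a B of at least 20, 10 with the library sets as a batch, and 2 to 108 with 1 library left out. The 20 genes of control tumours against healthy brain became 335 with no filter, 282 with no limit on E, 143 at a B of at least 10, 137 at an E of 0, 47 by DESeq2, 38 with a replicate block, 13 at a B of at least 20, 12 after thinning, 10 with the library sets, 6 without mixed barcodes, 3 with 24 members per healthy library, and 1 to 141 with 1 library left out. The 0 genes between the tumours became 169 with no filter, 84 at a B of at least 10, 55 at an E of 0, 10 by DESeq2, 2 with no limit on E, 2 with a replicate block, 1 after thinning, and 0 to 79 with 1 library left out. The 81 genes that differed from microglia in Rbpj-deleted tumours became 318 at an E of 0, 217 with no filter, 187 at a B of at least 20, 171 at an M and D of at most 1, 153 with no limit on E, 148 at a B of at least 10, and 56 to 168 with 1 library left out. The 75 in control tumours became 411 at an E of 0, 289 with no filter, 267 at a B of at least 20, 203 at a B of at least 10, 13 with no limit on E, and 32 to 312 with 1 library left out. Changes of sign are listed only for genes called as reported or called in the alternative. Ccl5 changed sign between the tumours at an E of 0 (-2.75, against 0.50 as reported). So did the differences from microglia in control tumours of Arg1 at a B of at least 20 (-3.02) and of Syt11 (-0.33) and Abca2 (-0.79) without mixed barcodes. The cause of these changes was not tested. Libraries under 10 members were left out of some alternatives. Control tumour replicate 2 was left out at a B of at least 10, at an E of 0 and after thinning. Both control libraries were left out at an M and D of at most 1. At a B of at least 20 and without mixed barcodes control tumour replicate 2 was kept, with 4 and 9 members. Same-numbered libraries correlated in their deviations at only 0.073, 0.063 and 0.042. With as few as 10 members in a library, counting noise lowers such a correlation, so it cannot settle whether the labels' numbers pair them. The replicate block is given here alone. The 10 members and 62936 UMIs of control tumour replicate 2 limit every comparison with control tumours.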
